A study of Mus musculus with 12 samples.

Results

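The genes described here encode the ephrin, semaphorin, netrin and slit families of guidance cues and their receptors, 66 of the 55487 genes in the count table of neonatal mouse lens. Members were chosen by a rule on the names of protein-coding genes. The rule used no measured value, but earlier results of these data were known when it was set. They comprised 9 EphA and 5 EphB receptors, 5 ephrin-A and 3 ephrin-B ligands, 20 semaphorins, 9 plexins, 4 netrins, 4 Unc5 receptors, 3 slits and 4 Robo receptors.

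RNA-seq was performed on whole lenses at P7 (postnatal day 7) from mice of 4 genotypes, wild-type (WT), *Trpm3*-KO, *Trpm3*-M/M (homozygous) and *Trpm3*-I/M (heterozygous), with 3 libraries per genotype and 12 in all. *Trpm3* encodes a calcium-permeable cation channel. The I/M and M/M animals were gene-edited to carry 1 or 2 copies of a cataract-causing isoleucine-to-methionine substitution, the *Trpm3*-KO animals were a knockout made by homologous recombination, and all strains were kept on the B6J background. By the methods, 4 male and 4 female lenses were combined for each library. As no source ties libraries to separate litters, p-values measure the spread between these pools.

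Guidance cues were first described in growing axons, where they attract or repel the growth cone, and the same systems direct adhesion, cell sorting and blood vessel growth elsewhere. Eph receptors are tyrosine kinases that bind membrane-held ephrins on neighbouring cells. Semaphorins act through plexins, the secreted class with neuropilin co-receptors, netrins act through Dcc and Unc5 receptors, and slits act through Robo receptors. In the lens, EphA2 and ephrin-A5 are known for their part in fiber cell packing, and their loss or mutation is a known cause of cataract. Robo4, Unc5b, plexin-D1 and EphB4 are known from vascular endothelium, a cell type that the capsule-bound lens lacks once its fetal vessels have regressed.

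Total counts per library ranged from 56162169 to 82090198. *Trpm3* itself was measured at 251 to 285 CPM (counts scaled to the library total times its TMM factor) in WT and at 89.9 to 99.7 CPM in *Trpm3*-KO libraries, a fall of 1.49 on the log2 scale, with RNA of the targeted gene still counted. The summed level of 8 lens fiber markers was 232435 to 252879 CPM in WT, 223664 to 246198 in *Trpm3*-KO, then 192581 to 201290 in *Trpm3*-I/M, then 154818 to 164038 in *Trpm3*-M/M, and both substitution genotypes lay below the others without overlap. Of these 8 genes, *Bfsp1*, which encodes the fiber protein filensin, was called lower in *Trpm3*-M/M. The library *Trpm3*-I/M replicate 3 stood apart, with *Xist* at 0.0721 CPM, against 45.8 to 305 CPM in the other libraries, and Y-linked genes at their highest, 69.1 CPM, which goes against a pool of both sexes. Results for *Trpm3*-I/M are therefore also given without that library. The TMM factors ranged from 0.828 to 1.27 and were highest in *Trpm3*-M/M. Scaling by library size alone moves the median log2 change of all tested genes up by 0.20 in *Trpm3*-I/M, and that of *Trpm3*-M/M by 0.50, relative to WT. Under it, 1 member past the FDR in *Trpm3*-I/M (*Sema4d*) and 5 in *Trpm3*-M/M (*Efnb2*, *Sema4d*, *Robo1*, *Sema3f* and *Plxnb1*) changed sign. In the comparison of *Trpm3*-M/M with *Trpm3*-I/M, *Sema3a* and *Ephb3* did. The fiber marker sums above are TMM-scaled too. With these factors, the log2 changes of the 8 fiber genes in *Trpm3*-M/M ran from -0.51 (*Cryaa*) to -1.32 (*Bfsp1*). Sums by library size alone were not computed, and there both substitution genotypes would lie closer to WT.

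Of the 66 genes, 32 passed the filter of the study (CPM of at least 5 in at least 3 libraries) and were tested. Another 12 passed a lower filter of CPM of at least 1, and 22 remained below both. The tested genes were 2 EphA receptors, 4 EphB receptors, 1 ephrin-A and 2 ephrin-B ligands, 11 semaphorins, 7 plexins, 2 slits, 2 Robo receptors, 1 Unc5 receptor and no netrin. *Plxna2* and *Robo2* passed only through *Trpm3*-M/M libraries, and *Epha5* only through WT and *Trpm3*-KO libraries, so these genes were tested because they were high in some genotypes. *Ephb6* and *Sema3d* passed only through the libraries of both substitution genotypes.

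In WT lenses, *Plxnb2*, *Sema5a*, *Slit3* and *Epha2* had the highest levels. Levels between genes were compared as FPKM (CPM per kilobase of exon). *Plxnb2*, a receptor for class 4 semaphorins, was highest at 18.2 to 18.8 FPKM, and its 3 libraries lay above those of every other member. *Sema5a*, a transmembrane semaphorin, followed at 12.6 to 14.8 FPKM. The secreted Robo ligand *Slit3* was at 11.2 to 12.5 FPKM and *Epha2* at 10.3 to 12.6 FPKM. The libraries of *Slit3* and *Epha2* overlapped, and the highest *Slit3* library fell just short of the lowest *Sema5a* library. *Efnb2*, a ligand of EphB receptors, was at 9.44 to 10.6 FPKM and overlapped *Epha2*. *Plxna1* and *Plxna4*, receptors for secreted and class 6 semaphorins, had overlapping levels, with means of 6.94 and 6.69 FPKM. *Efna5*, the ephrin-A ligand with a known lens role, was at 4.50 to 5.13 FPKM, ahead of *Sema5b* (mean 4.09) and *Plxnb1* (mean 4.00), which could not be separated by their libraries. The median over the tested members was 2.14 FPKM, against 3.38 FPKM over all tested genes, and 12 of the 32 lay above the latter. Of all 66 members, 23 reached 1 FPKM in WT.

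**Figure D1:**
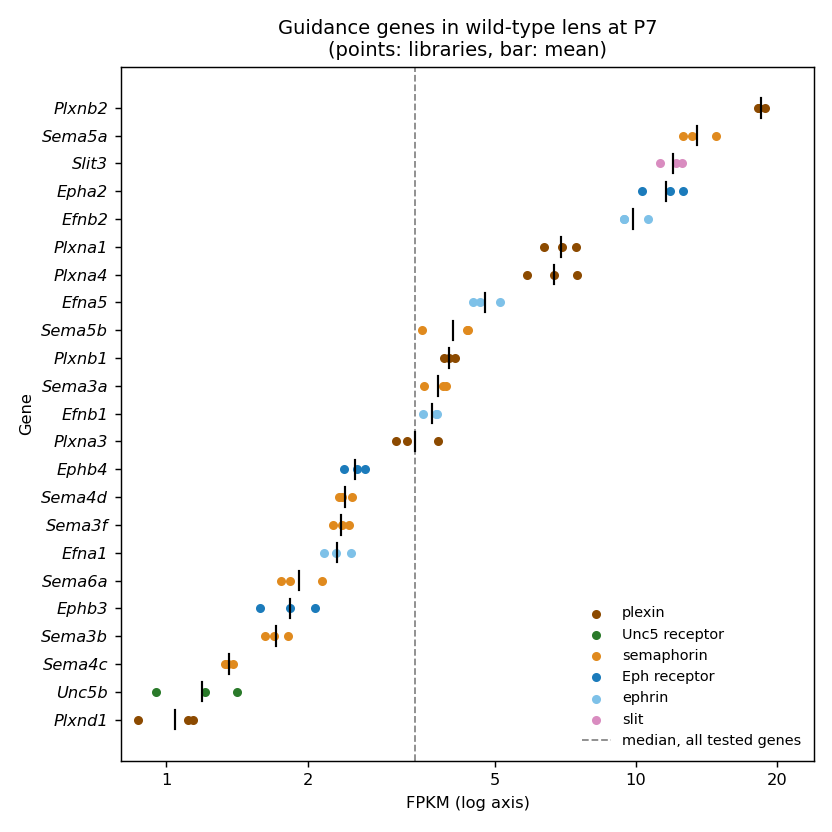
FPKM of the 23 guidance genes with a mean of at least 1 FPKM in wild-type lens at P7, on a log axis. Points are the 3 libraries, black bars are means and the dashed line marks the median of all tested genes (3.38 FPKM). *Plxnb2* stands apart from the rest, and *Unc5b* and *Plxnd1* are the lowest genes shown.

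Comparison of *Trpm3*-KO with WT addressed what loss of the channel does, and no tested member was called there, where called means FC ≥ 2 and FDR ≤ 0.05 in edgeR's quasi-likelihood test. The background rate over all 8984 tested genes was 0.234% called higher and 0.334% called lower. At FDR alone, 1 member was lower and none higher, beside 2.16% of all genes higher and 2.2% lower. That member was *Ephb4*, the ephrin-B2 receptor, at 11.1 to 12.3 CPM in WT and 9.19 to 10.2 CPM in *Trpm3*-KO libraries. The groups did not overlap and the log2 change was -0.26 ± 0.06 (SE, adjusted p = 0.0291). Scaled by library size alone, it had an adjusted p of 0.108. The median log2 change of the 32 members was 0.03, beside 0.00 for all genes. At an unadjusted p under 0.05, edgeR gave 1 member higher and 1 lower, and DESeq2 called 0 members as well. *Ephb4*, at under 2-fold, passed the FDR in DESeq2 too (adjusted p = 0.0158).

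In *Trpm3*-I/M lenses, 3 receptor genes rose at least 2-fold (*Unc5b*, *Robo2* and *Plxnd1*) and a ligand and a receptor fell (*Sema3a* and *Epha5*). These were 5 of 32 members, beside 2.58% of all genes called higher and 0.746% called lower. At FDR alone, 11 members were higher and 9 lower, beside 17.3% and 15.3% of all genes. In *Trpm3*-M/M lenses, *Unc5b*, *Plxnd1*, *Robo2*, *Slit2* and *Plxna2* rose and *Sema3a* and *Sema5b* fell, 7 of 32, beside 6.42% of all genes called higher and 2.53% called lower. At FDR alone, 15 rose and 11 fell, beside 31.4% of all genes higher and 31.4% lower. Scaled by library size alone, 4 members were called higher and 1 lower in *Trpm3*-I/M, then 11 higher and 0 lower in *Trpm3*-M/M. Since *Robo2*, *Plxna2* and *Epha5* entered through the genotypes in which they are high, these counts do not stand for the 66 genes as a whole. Median changes of the tested members stayed near 0, at -0.04 in *Trpm3*-I/M, then 0.12 in *Trpm3*-M/M, beside 0.00 for all genes in both comparisons.

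**Figure D2:**
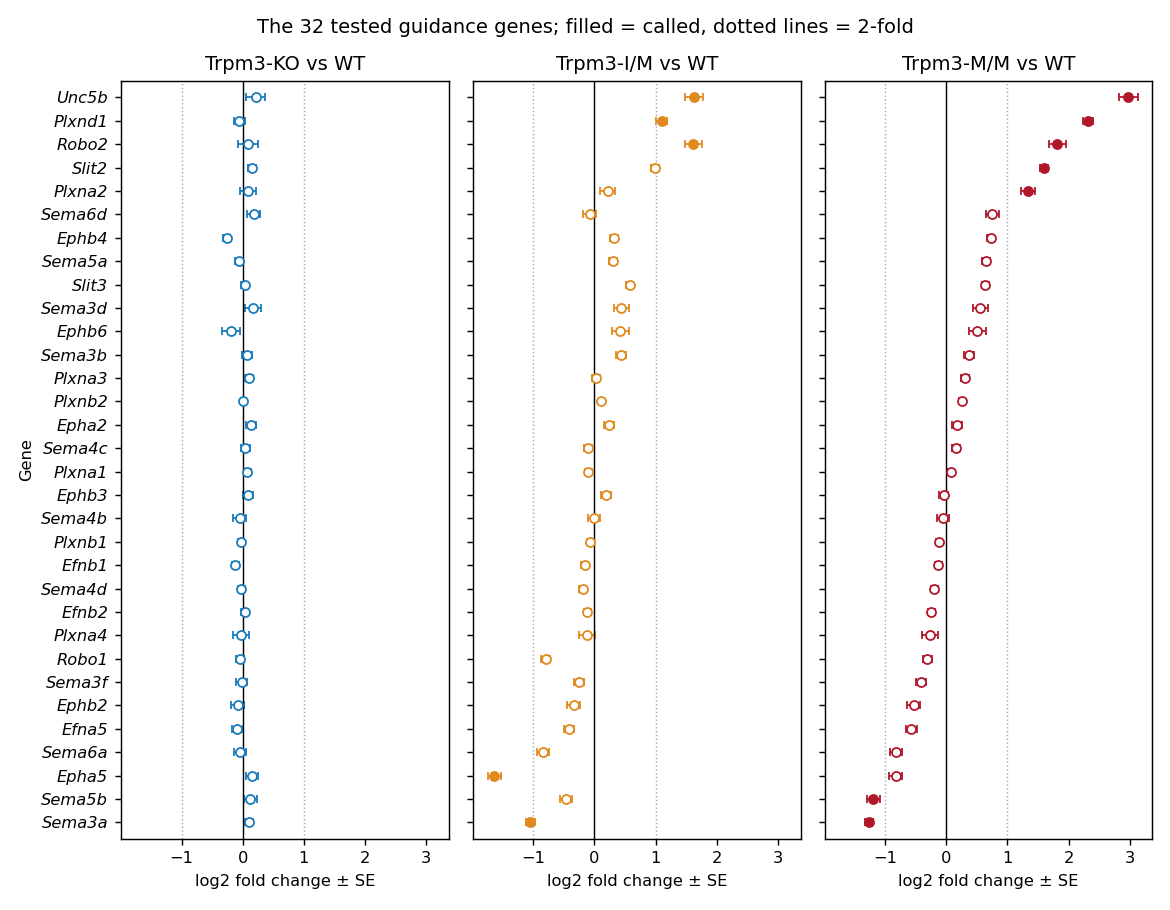
Log2 fold change from wild-type with its standard error for the 32 tested guidance genes in the 3 *Trpm3* genotypes, ordered by the value in *Trpm3*-M/M. Filled points were called and dotted lines mark 2-fold. No point is filled in the panel of *Trpm3*-KO, 5 are in that of *Trpm3*-I/M, then 7 in that of *Trpm3*-M/M, with *Unc5b* at the top and *Sema3a* at the bottom of the last panel.

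*Unc5b* (chromosome 10, 60762593 to 60831581, minus strand, GRCm38) encodes a netrin receptor that mediates repulsion and is known from endothelial tip cells. It was at 7.57, 8.82 and 5.95 CPM in WT, 9.31, 7.92 and 8.60 in *Trpm3*-KO, 24.8, 26.0 and 17.9 in *Trpm3*-I/M, and 57.2, 64.4 and 54.5 in *Trpm3*-M/M libraries. Each substitution genotype lay above WT and *Trpm3*-KO with no overlap, and *Trpm3*-M/M lay above *Trpm3*-I/M. The log2 change from WT was 1.62 ± 0.15 (SE, adjusted p = 2.58e-06) in *Trpm3*-I/M, against 2.98 ± 0.15 (adjusted p = 1.65e-09) in *Trpm3*-M/M, which was 7.90-fold. *Plxnd1* (chromosome 6, 115954811 to 115995005, minus strand) encodes the receptor for semaphorin 3E and is known for its part in vessel patterning. It was at 8.32, 6.37 and 8.13 CPM in WT and 7.78, 7.36 and 6.84 in *Trpm3*-KO. It reached 15.4, 17.2 and 16.4 CPM in *Trpm3*-I/M, then 35.7, 39.3 and 38.8 in *Trpm3*-M/M. Again the 3 levels did not overlap. The log2 change was 1.10 ± 0.09 (adjusted p = 7.19e-07) in *Trpm3*-I/M, against 2.32 ± 0.09 (adjusted p = 1.05e-10) in *Trpm3*-M/M, or 4.98-fold. Without WT replicate 2, the *Trpm3*-I/M value of *Plxnd1* was 0.99, just under 2-fold.

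The rise of these receptors is shown with the sequence upstream of their RefSeq starts, and with that of *Sema3a* and *Epha5*, which fell, so that the start regions of genes moving either way can be read side by side. Each is the 250 bases before the start in GRCm38.p6, printed in the direction of transcription. Capitals mark the GC box, the letters GGGCGG or, on the other strand, CCGCCC, which is the textbook binding sequence of Sp1-type factors and does not overlap another searched motif. The windows lie at chr10:60831582-60831831 (*Unc5b*, minus strand), chr6:115995006-115995255 (*Plxnd1*, minus strand), chr5:13396534-13396783 (*Sema3a*, plus strand) and chr5:84417383-84417632 (*Epha5*, minus strand).
Unc5b: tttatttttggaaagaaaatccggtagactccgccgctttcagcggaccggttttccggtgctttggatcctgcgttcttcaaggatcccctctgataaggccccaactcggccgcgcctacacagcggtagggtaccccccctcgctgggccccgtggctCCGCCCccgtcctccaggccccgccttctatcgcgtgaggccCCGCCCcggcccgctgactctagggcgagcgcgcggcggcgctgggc
Plxnd1: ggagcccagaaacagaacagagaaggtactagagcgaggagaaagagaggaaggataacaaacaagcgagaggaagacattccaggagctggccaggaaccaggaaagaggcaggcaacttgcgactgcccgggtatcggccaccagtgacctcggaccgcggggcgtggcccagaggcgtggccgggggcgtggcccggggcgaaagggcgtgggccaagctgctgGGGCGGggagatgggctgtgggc
Sema3a: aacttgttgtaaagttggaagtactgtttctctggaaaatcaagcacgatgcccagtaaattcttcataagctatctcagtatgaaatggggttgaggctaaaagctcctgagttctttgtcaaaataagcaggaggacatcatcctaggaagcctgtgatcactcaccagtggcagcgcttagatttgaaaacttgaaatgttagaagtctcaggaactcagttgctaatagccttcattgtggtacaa
Epha5: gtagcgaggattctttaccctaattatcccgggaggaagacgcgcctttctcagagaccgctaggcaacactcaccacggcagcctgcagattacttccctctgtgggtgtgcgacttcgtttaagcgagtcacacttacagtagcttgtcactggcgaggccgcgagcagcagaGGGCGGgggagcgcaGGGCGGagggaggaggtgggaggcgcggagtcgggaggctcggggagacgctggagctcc
The *Unc5b* window holds 2 GC boxes, starting 89 and 47 bases before the start, the *Plxnd1* window 1 at 23 bases and the *Epha5* window 2 at 75 and 60 bases. The *Sema3a* window holds none. It begins inside the longer *Sema3a* gene of the GENCODE annotation, and its GC content is 40.8%, against 66.8%, 64.8% and 62.4% in *Unc5b*, *Plxnd1* and *Epha5*. The motif occurs in 32.7% of all 32851 windows of this length, whose median GC content is 52.4%, and in 69.9% of the 73 windows of members. Of the 66 members, 57 had a window. The letters are thus present before a gene that rose and before one that fell.

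Among slits and their receptors, *Slit2* and *Robo2* rose and *Robo1* was lower in *Trpm3*-I/M. *Slit2* (chromosome 5, 47983138 to 48307733) encodes a secreted ligand of Robo receptors that repels axons and acts on vessels. It was at 19.9, 16.5 and 17.7 CPM in WT, 19.7, 20.6 and 19.5 in *Trpm3*-KO, 35.9, 36.3 and 34.6 in *Trpm3*-I/M, then 52.3, 53.4 and 58.7 in *Trpm3*-M/M libraries. *Trpm3*-M/M exceeded *Trpm3*-I/M and both exceeded WT without overlap. The log2 change was 0.98 ± 0.07 (adjusted p = 1.42e-07), just under 2-fold, in *Trpm3*-I/M, against 1.60 ± 0.07 (adjusted p = 2.66e-10) in *Trpm3*-M/M. *Robo2* (chromosome 16, 73891839 to 74411825), a slit receptor, was at 1.44, 1.30 and 1.33 CPM in WT, 1.16, 1.52 and 1.65 in *Trpm3*-KO, 3.79, 4.57 and 4.14 in *Trpm3*-I/M, then 4.26, 4.65 and 5.44 in *Trpm3*-M/M libraries. The substitution genotypes overlapped each other and lay above the other two. The log2 change was 1.62 ± 0.14 (adjusted p = 1.93e-06) in *Trpm3*-I/M, against 1.82 ± 0.14 (adjusted p = 1.25e-07) in *Trpm3*-M/M. *Robo1*, the other tested slit receptor, was at 9.71 to 9.95 CPM in WT, 5.42 to 5.98 in *Trpm3*-I/M, then 7.66 to 8.46 in *Trpm3*-M/M. Its log2 change was -0.79 ± 0.07 (adjusted p = 2.56e-06) in *Trpm3*-I/M. In *Trpm3*-M/M it was -0.31 ± 0.07 (adjusted p = 0.00169), which became 0.20 when libraries were scaled by size alone. *Slit3* was higher in both genotypes at FDR alone, by 0.57 ± 0.05 in *Trpm3*-I/M, against 0.64 ± 0.05 in *Trpm3*-M/M on the log2 scale.

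Of the plexins, *Plxna2* rose along with *Plxnd1*, and of the semaphorins, *Sema3a* and *Sema5b* fell. *Plxna2* (chromosome 1, 194618218 to 194816869), a receptor that pairs with neuropilins for secreted semaphorins and also binds class 6 semaphorins, was at 3.36, 3.03 and 2.58 CPM in WT, 3.03, 2.73 and 3.81 in *Trpm3*-KO, 3.45, 3.39 and 3.58 in *Trpm3*-I/M, then 7.66, 7.11 and 7.84 in *Trpm3*-M/M libraries. *Trpm3*-M/M lay above the other 3 genotypes, with a log2 change from WT of 1.33 ± 0.12 (adjusted p = 5.06e-07) against 0.22 ± 0.13 (adjusted p = 0.214) in *Trpm3*-I/M, and a difference between these genotypes of 1.12 ± 0.11 (adjusted p = 3.89e-06). *Sema3a* (chromosome 5, 13125414 to 13602565), the prototype secreted repellent, was at 54.7, 49.0 and 53.9 CPM in WT, 54.5, 60.0 and 54.5 in *Trpm3*-KO, 25.0, 23.6 and 27.6 in *Trpm3*-I/M, then 20.6, 21.6 and 23.3 in *Trpm3*-M/M libraries. Both substitution genotypes lay far below the other genotypes and did not overlap each other. The log2 change was -1.05 ± 0.07 (adjusted p = 1.42e-07) in *Trpm3*-I/M, against -1.27 ± 0.07 (adjusted p = 4.63e-09) in *Trpm3*-M/M. *Sema5b* (chromosome 16, 35541145 to 35664732), a transmembrane semaphorin, was at 31.0, 31.1 and 24.7 CPM in WT, 31.6, 31.1 and 31.9 in *Trpm3*-KO, 18.4, 22.0 and 22.3 in *Trpm3*-I/M, then 10.6, 13.1 and 14.0 in *Trpm3*-M/M libraries. Its groups descended without overlap from WT to *Trpm3*-I/M to *Trpm3*-M/M. The log2 change was -0.47 ± 0.11 (adjusted p = 0.00451) in *Trpm3*-I/M, against -1.20 ± 0.11 (adjusted p = 5.50e-07) in *Trpm3*-M/M. By library size alone, the *Trpm3*-M/M changes were -0.76 for *Sema3a* and -0.68 for *Sema5b*, still past the FDR but under 2-fold, and that of *Sema3a* in *Trpm3*-I/M was -0.85.

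Of the 11 tested semaphorins, 5 rose and 5 fell in *Trpm3*-M/M at FDR alone, and 2 of the falls, of *Sema4d* and *Sema3f*, turned positive by library size alone. *Sema6a*, a transmembrane ligand of A-type plexins, was at 15.4 to 18.9 CPM in WT, 8.57 to 10.5 in *Trpm3*-I/M, then 9.20 to 9.83 in *Trpm3*-M/M. Its log2 changes of -0.84 ± 0.10 and -0.82 ± 0.10 in these genotypes fell short of 2-fold. By library size alone they were -0.64 and -0.31, the latter with an adjusted p of 0.0173. *Sema5a*, the most abundant semaphorin, was at 235 to 277 CPM in WT and at 381 to 409 CPM in *Trpm3*-M/M, without overlap and by 0.65 ± 0.07 on the log2 scale. *Plxnb2* was at 141 to 145 CPM in WT and 162 to 174 in *Trpm3*-M/M, 0.25 ± 0.04 higher. *Plxna1* and *Plxna4* did not pass the FDR in *Trpm3*-M/M, with log2 values of 0.07 and -0.27. The value for *Plxnb1* was -0.12 (adjusted p = 0.0296), and it became positive under scaling by library size alone.

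Among Eph and ephrin genes, the gene called was *Epha5* (chromosome 5, 84054761 to 84417382, minus strand), a receptor for ephrin-A ligands known from retinal axon mapping. It was at 5.60, 5.90 and 5.57 CPM in WT, 5.98, 6.58 and 6.44 in *Trpm3*-KO, 2.04, 1.66 and 1.79 in *Trpm3*-I/M, then 3.69, 3.04 and 2.91 in *Trpm3*-M/M libraries. *Trpm3*-I/M was lowest, and *Trpm3*-M/M lay between it and WT with no overlap on either side. The log2 change was -1.64 ± 0.11 (adjusted p = 1.59e-07) in *Trpm3*-I/M, against -0.83 ± 0.10 (adjusted p = 1.21e-05) in *Trpm3*-M/M. *Trpm3*-M/M exceeded *Trpm3*-I/M by 0.81 ± 0.11 (adjusted p = 5.00e-05). By library size alone, the change of *Epha5* was -1.44 in *Trpm3*-I/M, against -0.32 (adjusted p = 0.012) in *Trpm3*-M/M. *Ephb4* was at 14.3 to 15.3 CPM in *Trpm3*-I/M, then 18.4 to 20.1 in *Trpm3*-M/M, above its WT level, by 0.32 ± 0.06 and 0.73 ± 0.06 on the log2 scale. *Epha2* was at 48.3, 55.2 and 58.8 CPM in WT and 56.8, 57.5 and 68.2 CPM in *Trpm3*-M/M, so that the groups overlapped, with a log2 change of 0.17 ± 0.08 (adjusted p = 0.0922). In *Trpm3*-I/M it was 0.24 ± 0.08 (adjusted p = 0.0436), with adjusted p-values of 0.0604 without *Trpm3*-I/M replicate 3, 0.055 with upper-quartile factors and from 0.000568 to 0.171 over all alternatives. *Efna5*, at 18.1 to 20.7 CPM in WT, was at 13.2 to 15.2 in *Trpm3*-I/M, then 12.1 to 14.2 in *Trpm3*-M/M. Its log2 change of -0.57 ± 0.09 (adjusted p = 7.89e-05) in *Trpm3*-M/M shrank to -0.07 by library size alone. *Efnb2* was 0.25 ± 0.06 lower on the log2 scale in *Trpm3*-M/M, and 0.26 higher by library size alone.

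**Figure D3:**
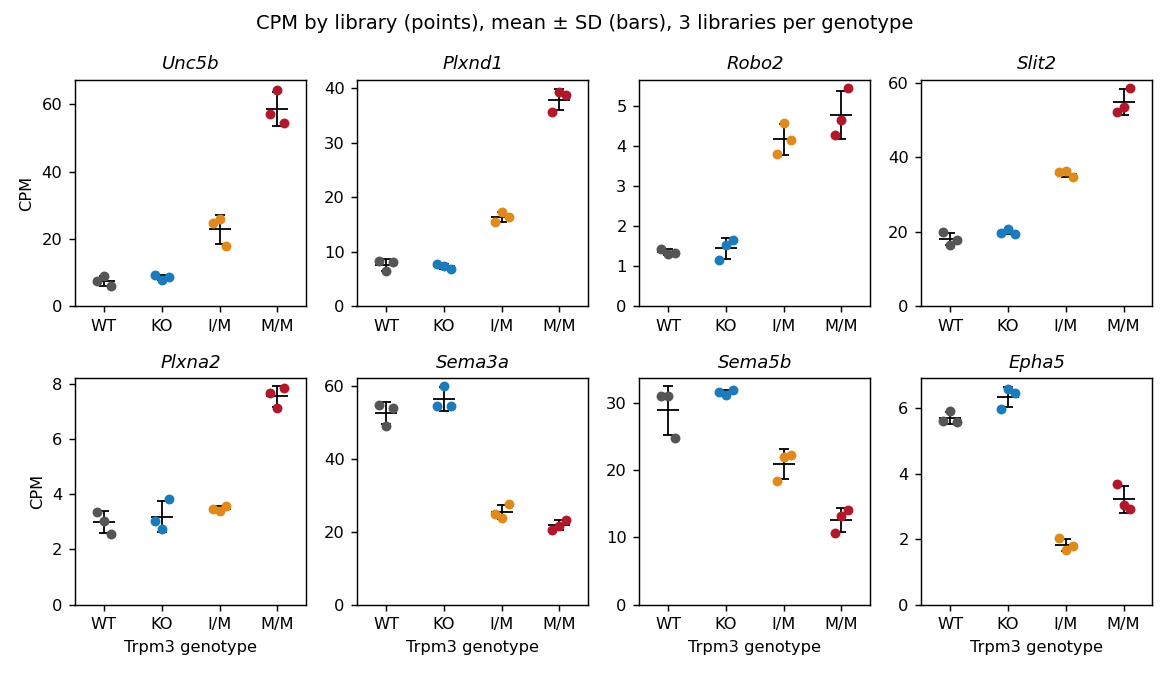
CPM of the 8 called guidance genes in each library (points), with the mean and SD of 3 libraries per genotype. The scale differs between panels and starts at 0. WT and *Trpm3*-KO lie close to each other in each panel, *Unc5b*, *Plxnd1* and *Slit2* climb from *Trpm3*-I/M to *Trpm3*-M/M, and *Epha5* is lowest in *Trpm3*-I/M.

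*Trpm3*-M/M was next compared with *Trpm3*-I/M, to ask what 2 copies of the substitution change beyond 1. *Unc5b* (1.36 ± 0.13), *Plxnd1* (1.22 ± 0.08) and *Plxna2* (1.12 ± 0.11) were called higher on the log2 scale and 0 members lower, beside 3.67% and 1.02% of all genes. At an unadjusted p under 0.05, edgeR gave 4 members lower, all under 2-fold, so none could be called. DESeq2 also put them under 2-fold. Its adjusted p-values were 6.62e-10 for *Sema5b*, 0.0156 for *Ephb3*, 0.0114 for *Sema3a* and 0.082 for *Efnb2*. At FDR alone, 13 members were higher and 3 lower, beside 25.6% and 25.7%. *Sema3a* differed by -0.22 ± 0.07, or by 0.092 (adjusted p = 0.355) by library size alone, and *Robo2* by 0.20 ± 0.12 (adjusted p = 0.183), both TMM-scaled values smaller than the distance of *Trpm3*-I/M from WT. The *Trpm3*-I/M mean lay between WT and *Trpm3*-M/M for 22 of 32 members (68.8%), beside 59.2% of all tested genes. *Epha5* and *Robo1* were exceptions, with *Trpm3*-I/M furthest from WT. Against *Trpm3*-KO, in a comparison that shares its *Trpm3*-M/M libraries with the one against WT, 5 members were called higher and 2 lower, beside 6.85% and 2.94% of all genes. Their log2 values were 2.77 for *Unc5b*, 2.37 for *Plxnd1*, 1.73 for *Robo2*, 1.46 for *Slit2*, 1.24 for *Plxna2*, -1.32 for *Sema5b* and -1.37 for *Sema3a*. By library size alone, 10 members were called higher there and 0 lower.

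Without *Trpm3*-I/M replicate 3, the log2 changes in *Trpm3*-I/M were 1.77 for *Unc5b*, 1.62 for *Robo2*, 1.10 for *Plxnd1*, -1.11 for *Sema3a* and -1.62 for *Epha5*, and *Slit2* reached 1.00 and was called as well. *Epha2*, *Sema4d* and *Sema3f* no longer passed the FDR in *Trpm3*-I/M. The differences of *Trpm3*-M/M from *Trpm3*-I/M were 1.21 for *Unc5b*, 1.22 for *Plxnd1* and 1.14 for *Plxna2*, and no other member was called there. That of *Sema3a* was -0.15 ± 0.07 and no longer passed the FDR (adjusted p = 0.0967).

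Among weakly expressed members, *Robo4* and *Sema3c*, with few counts in WT, rose in both substitution genotypes, and *Ntn4* and *Sema7a* rose in *Trpm3*-M/M. At a CPM of at least 1, 44 members and 12638 genes were tested. Of the 12 members added, 1 was called in *Trpm3*-KO, 3 were in *Trpm3*-I/M, then 5 in *Trpm3*-M/M, all higher. Over all genes, the shares called higher and lower were 0.364% and 0.451% for *Trpm3*-KO, 4% and 1.25% for *Trpm3*-I/M, then 9.69% and 3.24% for *Trpm3*-M/M. *Robo4*, *Ntn4*, *Sema7a* and *Epha1* passed the lower filter through *Trpm3*-M/M libraries alone. *Sema3c* passed it only through libraries of both substitution genotypes, and *Epha4* only through *Trpm3*-KO and *Trpm3*-M/M libraries. The calls of these genes therefore rest partly on that selection. *Robo4* (chromosome 9, 37401897 to 37415115), the endothelial Robo receptor, had 1, 0 and 4 counts in WT, 1, 0 and 1 in *Trpm3*-KO, 23, 38 and 60 in *Trpm3*-I/M, then 164, 221 and 229 in *Trpm3*-M/M libraries. The fitted log2 change was 3.93 ± 0.63 in *Trpm3*-I/M, against 6.03 ± 0.51 (adjusted p = 2.23e-07) in *Trpm3*-M/M, a size that rests on 5 counts in WT. Without *Trpm3*-I/M replicate 3, which had the highest count of its genotype, the *Trpm3*-I/M value was 3.46 ± 0.56 (adjusted p = 0.000568). *Sema3c*, a secreted semaphorin known from heart outflow and vessel development, had 2, 7 and 4 counts in WT and 10, 7 and 7 in *Trpm3*-KO. It had 66, 86 and 81 counts in *Trpm3*-I/M, then 110, 147 and 151 in *Trpm3*-M/M libraries. The rise was 3.53 ± 0.30 and 4.10 ± 0.29 on the log2 scale, and 3.44 in *Trpm3*-I/M without that library. *Ntn4*, a netrin of basement membranes, had 6, 7 and 6 counts in WT, 3, 4 and 3 in *Trpm3*-KO, 14, 33 and 13 in *Trpm3*-I/M, then 112, 205 and 149 in *Trpm3*-M/M libraries. Its log2 change was 1.03 ± 0.41 (adjusted p = 0.077) in *Trpm3*-I/M, against 3.75 ± 0.32 (adjusted p = 2.36e-07) in *Trpm3*-M/M. *Sema7a*, the membrane-anchored semaphorin, was at 0.197 to 0.337 CPM in WT and 1.28 to 1.51 CPM in *Trpm3*-M/M, 2.28 ± 0.31 higher on the log2 scale. *Epha1* was also called in both substitution genotypes, at 1.12 ± 0.23 and 1.40 ± 0.23, the former 1.23 without that library. Its gene overlaps *Zyx*, which carries 4590% of its count on the opposite strand, and since strand was not given for the counting, the source of those reads is uncertain. *Epha4* was the member called in *Trpm3*-KO, at 0.575 to 0.714 CPM in WT and 1.25 to 1.39 in *Trpm3*-KO, by 1.07 ± 0.26 on the log2 scale (adjusted p = 0.0307). It was also higher in *Trpm3*-M/M than in WT, by 0.85 ± 0.25 (adjusted p = 0.00946). *Trpm3*-M/M differed from *Trpm3*-KO by -0.22 ± 0.22 (adjusted p = 0.404).

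**Figure D4:**
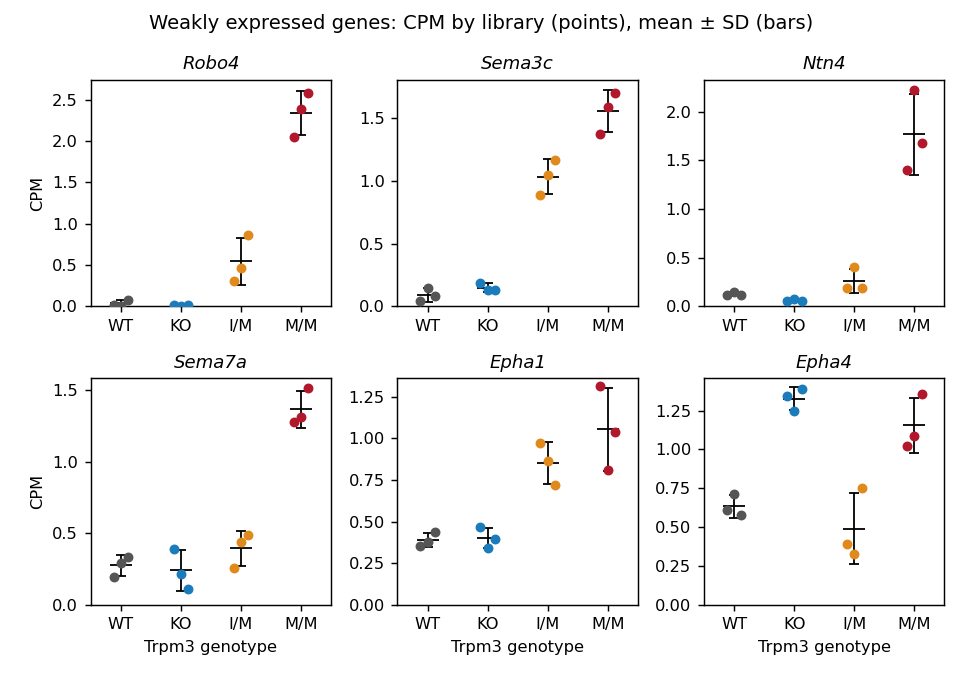
CPM of the 6 weakly expressed guidance genes called at the lower filter, by library (points) with the mean and SD of 3 libraries per genotype. *Robo4* lies near 0 in WT and *Trpm3*-KO and between 2.05 and 2.58 CPM in *Trpm3*-M/M, and *Epha4* is higher in *Trpm3*-KO than in WT.

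The remaining 22 members, among them *Slit1*, *Robo3*, *Unc5a*, *Unc5c*, *Unc5d* and *Epha3*, stayed at or below 1.18 CPM in every library and are described by level only. *Sema3e*, the ligand of plexin-D1, was at 0.00 to 0.0595 CPM in WT, 0.202 to 0.256 in *Trpm3*-I/M, then 0.305 to 0.400 in *Trpm3*-M/M. *Sema3g* was at 0.0393 to 0.0793 CPM in WT and 0.542 to 1.06 in *Trpm3*-M/M. *Epha3* was at 0.393 to 0.483 CPM in WT, 0.0144 to 0.0674 in *Trpm3*-I/M, then 0.0564 to 0.108 in *Trpm3*-M/M. *Epha6* did not exceed 0.0595 CPM in any library, and the floor of 3 counts corresponds to between 0.0325 and 0.0630 CPM.

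As a sum, markers of vessels were higher in both substitution genotypes, in which members moved in both directions. The summed level of 10 vascular endothelium markers was 13.9 to 16.4 CPM in WT, 13.9 to 15.0 in *Trpm3*-KO, then 25.5 to 32.0 in *Trpm3*-I/M, then 60.0 to 69.4 in *Trpm3*-M/M, with no marker at 0 in all libraries of a genotype. Of its 6 tested genes, 5 were called higher in each substitution genotype. Over all tested genes, the shares were 2.58% with 1 copy of the substitution and 6.42% with 2. The count leaves out markers below the filter. It includes *Cdh5*, *Pecam1*, *Tie1* and *Cldn5*, which lay below the filter in WT and entered through libraries of the substitution genotypes. The count therefore rests largely on that selection and does not stand for all 10 markers. *Egfl7* and *Tek* made up much of the WT sum, at 7.20 to 8.09 and 4.81 to 6.48 CPM. *Egfl7* was the tested marker not called, with log2 changes of -0.30 ± 0.09 (adjusted p = 0.0241) in *Trpm3*-I/M and 0.06 ± 0.09 (adjusted p = 0.577) in *Trpm3*-M/M. The endothelial cadherin *Cdh5* was at 0.08 to 0.40 CPM in WT and 8.13 to 11.9 in *Trpm3*-M/M, and it passed the filter because of the latter libraries. Summed levels of 10 pericyte and fibroblast markers were 74.8 to 90.9 CPM in WT, 66.5 to 73.0 in *Trpm3*-KO, then 99.7 to 126 in *Trpm3*-I/M, then 265 to 398 in *Trpm3*-M/M, with 1 marker at 0 in WT and *Trpm3*-KO. Levels of 8 macrophage markers in the same order were 0.416 to 0.550, 0.434 to 0.486, 0.923 to 1.11, then 8.26 to 18.1 CPM. Those of 5 cornea markers were 0.236 to 0.436, 0.299 to 0.525, 0.231 to 0.418, then 3.66 to 6.72 CPM, with 3 of them at 0 in all genotypes other than *Trpm3*-M/M. Summed neural retina markers lay between 19.7 and 25.1 CPM in all 12 libraries, but only *Gfap* of these 10 markers passed the filter. With no filter, 6 of them were called higher in *Trpm3*-M/M than in WT and 1 lower, beside 7.88% and 2.83% of all genes. Red blood cell markers were at 0.963 to 7.31 CPM in WT and 0.822 to 3.56 in *Trpm3*-KO. They were at 2.98 to 7.98 CPM in *Trpm3*-I/M, then 7.49 to 8.72 in *Trpm3*-M/M. Pigmented cell markers stood apart in *Trpm3*-I/M, at 5.32 to 6.17 CPM, against 2.84 to 3.63 CPM in the other genotypes. The summed level of 5 lens epithelium markers was 263 to 298 CPM in WT, 245 to 256 in *Trpm3*-KO, then 191 to 209.7 in *Trpm3*-I/M, then 150.2 to 155 in *Trpm3*-M/M. These TMM-scaled falls would be smaller by library size alone, which was not computed for the sums. The part of these cell types in the changes of *Unc5b*, *Plxnd1*, *Slit2*, *Robo4* and the other members was not tested. In whole lenses, fewer cells of a type and less RNA per cell cannot be told apart.

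The co-receptors and downstream proteins of the same systems, listed from general knowledge, were compared as well. Of 20 other receptors, 8 were tested. In *Trpm3*-M/M 4 were called higher and none lower, with a median log2 change of 1.77, and in *Trpm3*-I/M 3 were called higher. The matching shares over all tested genes were 6.42% and 2.58%. *Nrp2*, *Dcc* and *Flt1* were tested because of their high *Trpm3*-M/M libraries. The counts and the median therefore rest partly on that selection and do not stand for the 20 receptors listed. *Nrp2*, the neuropilin of class 3 semaphorins, was at 0.177 to 0.218 CPM in WT, 0.404 to 0.583 in *Trpm3*-I/M, then 6.58 to 9.88 in *Trpm3*-M/M, a log2 change of 5.40 ± 0.22 in the last. The netrin receptor *Dcc* was at 1.78 to 2.02 CPM in WT, 0.657 to 0.705 in *Trpm3*-KO and 8.88 to 14.7 in *Trpm3*-M/M. It was called lower in *Trpm3*-KO (-1.45 ± 0.25, adjusted p = 0.0037) and higher in *Trpm3*-M/M (2.64 ± 0.19). The VEGF receptor *Flt1* and the netrin-binding *Mcam*, both known from endothelium, rose by 7.24 ± 0.46 and 2.85 ± 0.14 in *Trpm3*-M/M, and *Flt1* had 0.105 CPM or less in WT. Of 14 tested further ligands, among 20 listed, 2 were called higher in *Trpm3*-M/M, with a median of 0.59. One of the 2 was *Sdc3*, a heparan sulfate proteoglycan (1.47 ± 0.06). Of 40 tested effectors and proteases, among 49 listed, 6 were called higher and 1 lower, with a median of 0.20. *Ngef*, which encodes the exchange factor ephexin that acts below EphA receptors, was the one that fell, from 95.0 to 100.2 CPM in WT to 45.6 to 47.3 in *Trpm3*-I/M, then 24.3 to 29.0 in *Trpm3*-M/M. The log2 changes were -1.06 ± 0.06 and -1.89 ± 0.06. Among those that rose in *Trpm3*-M/M were *Pdzrn3* (4.06 ± 0.14), the plexin-linked oxidoreductase *Mical2* (2.24 ± 0.10), the slit-Robo GTPase-activating protein *Srgap1* (1.63 ± 0.15) and the Rac exchange factor *Tiam1* (1.53 ± 0.12).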

How the data were processed

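The authors aligned and quantified reads with DRAGEN against mm10 and deposited these estimated counts per gene and library, neither normalized nor pooled. Of the values, 88.4% were whole. The tests had been chosen for whole counts, so values were rounded. The authors' edgeR table, with CPM, fold changes and p-values of their own, was not used. The 8984 genes that reached a CPM of 5 (by library total) in 3 or more libraries entered 1 quasi-likelihood fit over all 12 libraries in edgeR 4.0.16 (R 4.3.3) with TMM factors. Libraries were grouped by their labels, 5 comparisons were made, and p-values were adjusted by Benjamini–Hochberg over all tested genes. Standard errors came from the fold change and F statistic. FPKM was TMM-scaled CPM per kilobase of merged exons (GENCODE, GRCm38). Alternatives were library size only, upper-quartile factors, DESeq2 1.42.0, no filter, CPM of at least 1, no fold change threshold, a fit limited to the compared genotypes, a block for replicate number, and each library left out. The fit was tested on simulated data. Depth limits weak genes: counting error allows 3 counts where 0 were seen, which covers counting error only. Strandedness of the counting is not given in the sources used here, and 16 members overlap another gene. Promoter windows were those of RefSeq.

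Members and lists were chosen with earlier results of these data known. Named were every called member, the 10 highest by FPKM in WT, *Epha2* and *Efna5*, called genes of other lists with the largest changes in *Trpm3*-M/M (at most 10), *Trpm3* and leading marker genes. *Ephb4*, *Robo1*, *Sema6a* and the genes below the filter were named after their values were seen, and the promoters and motif shown were chosen after them too.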

Additional observations from a re-analysis of the deposited data

Results flagged for a closer look

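In *Epha5* and *Robo1*, *Trpm3*-I/M differed more from WT than *Trpm3*-M/M did, and the difference between these genotypes passed edgeR's test with a log2 value of 0.81 for *Epha5* (adjusted p = 5.00e-05) and 0.48 for *Robo1* (adjusted p = 9.24e-05). Both differences kept their sign under scaling by library size alone, at 1.12 and 0.79.

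Below the filter of the study, 5 members were called higher in *Trpm3*-M/M than in WT in the fit with CPM of at least 1. Their mean levels in *Trpm3*-M/M were 2.34 CPM for *Robo4*, 1.77 CPM for *Ntn4*, 1.56 CPM for *Sema3c*, 1.37 CPM for *Sema7a* and 1.05 CPM for *Epha1*, against 0.0330, 0.128, 0.0886, 0.276 and 0.389 CPM in WT. All but *Sema3c* passed that filter through *Trpm3*-M/M libraries alone, and the source of the *Epha1* reads is uncertain because its gene overlaps *Zyx*.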

How the results depend on the processing

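The filter set most counts of called members. With no filter, 1 member was called in *Trpm3*-KO, 16 in *Trpm3*-I/M, 20 in *Trpm3*-M/M, 15 between *Trpm3*-M/M and *Trpm3*-I/M and 22 between *Trpm3*-M/M and *Trpm3*-KO. That fit gave far smaller p-values, for example 8.91e-49 against 1.42e-07 for *Slit2* in *Trpm3*-I/M, so its calls of members were not used. The fit with CPM of at least 1 was used for weakly expressed members, a choice made after seeing these values. With CPM of at least 1, the counts were 1, 8, 12, 7 and 13, and with no fold change threshold 1, 20, 26, 16 and 24. Both add genes by construction. With library size only, 11 members were called in *Trpm3*-M/M, none of them lower, 5 between the substitution genotypes, and 10 against *Trpm3*-KO, none of them lower. Restricting the fit to the genotypes compared left 27 members tested and 3 called in *Trpm3*-I/M, since genes such as *Robo2* then missed the filter. Upper-quartile factors and DESeq2 left the counts at 0, 5, 7, 3 and 7. When 1 library was left out, counts ranged from 4 to 6 in *Trpm3*-I/M, 5 to 7 in *Trpm3*-M/M, 2 to 3 between the substitution genotypes and 5 to 9 against *Trpm3*-KO, and stayed at 0 in *Trpm3*-KO. Leaving out any *Trpm3*-M/M library removed *Plxna2* and *Robo2* from the test. Single-gene values under each alternative were compared for *Trpm3* and 17 members, those called, highest in WT or chosen for a lens role. Of 1673 such values, 6 fell below a threshold and 13 passed one. Of those past the FDR under either setting, 8 changed sign, all with library size only. These were *Efnb2* (0.26) and *Plxnb1* (0.39) in *Trpm3*-M/M, *Sema3a* (0.092), *Epha2* (0.24), *Efnb2* (0.18) and *Plxnb1* (0.26) between the substitution genotypes, and *Efnb2* (0.18) and *Plxnb1* (0.37) between *Trpm3*-M/M and *Trpm3*-KO, where each was negative with TMM factors. Another 31 changed sign without passing the FDR under either. Members outside these 17 that passed the FDR also changed sign by library size alone, among them *Sema4d*, *Robo1* and *Sema3f* in *Trpm3*-M/M.

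Replicate numbers are shared across genotypes only as numbers. Of 18 same-numbered pairs, 2 correlated above 0.1 (range -0.26 to 0.18), and 1 library correlated best with its own number. In that lower-filter fit, leaving out *Trpm3*-I/M replicate 3, an alternative chosen after seeing the data, kept the number of added members called at 1, 3, 5, 4 and 5. With the replicate block, 0, 5, 7, 3 and 7 members were called.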
